A study of Bos taurus with 252 samples.

Results

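Genes that mark eosinophils, basophils and mast cells were followed in the blood of feedlot steers. The 9 genes were chosen by symbol, and 9 of 9 were among the 33282 genes of the count table. They were the 3 chains of the high-affinity IgE receptor (FCER1A, MS4A2 and FCER1G), the basophil and mast cell products CPA3 and HDC, the transcription factor GATA2, the eosinophil receptors IL5RA and CCR3, and the lipoxygenase ALOX15. Whole blood was drawn from 42 crossbred steers at a feedlot on day 0 and then on day 3, day 7, day 14, day 21 and day 56, and each draw gave a stranded mRNA library. The 7 groups held 6 steers each, namely steers without an antimicrobial (NC) and steers given 1 label dose of a drug after the blood draw of day 0. The drugs were the macrolides tulathromycin (TULA) and tildipirosin (TILD), the cephalosporin ceftiofur (CEFT), the fluoroquinolone enrofloxacin (ENRO), the phenicol florfenicol (FLOR) and the tetracycline oxytetracycline (OXYT). Every steer, NC included, had received tildipirosin, a trenbolone acetate and estradiol implant, an antiparasitic drug, an oral dewormer and vaccines when backgrounding began, before the trial. The steers were castrated males. Each group was kept in a pen of its own, and from day 3 on blood was drawn in a fixed order of the groups, so pen, order and treatment cannot be told apart, and the ages of the steers are not given in the sources used here.

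Eosinophils and basophils are rare granulocytes of the blood that take part in the defence against parasites and in allergic reactions. Interleukin 5 drives the formation and survival of eosinophils through IL5RA, eotaxins draw them into tissue through CCR3, and ALOX15 oxidizes arachidonic acid in them. Basophils, and mast cells in tissue, carry the high-affinity IgE receptor, in which the alpha chain FCER1A binds IgE, the beta chain MS4A2 amplifies the signal and the gamma chain FCER1G transmits it. FCER1G also serves Fc receptors of neutrophils, monocytes and NK cells. CPA3 is a carboxypeptidase of basophil and mast cell granules, HDC makes histamine, and GATA2 is a regulator of the basophil and mast cell lineages that is also used by blood progenitors.

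Libraries held 26073640 to 74110289 counts (median 43608836), and the hemoglobin genes took 0.00405 to 25.5% of the counts. NC and ENRO were sequenced on lane 1, TULA on lane 2, CEFT and OXYT on lane 3, and FLOR and TILD over 2 lanes each, so lane and treatment cannot be told apart for most groups. The labelled tissue is whole blood, and defining genes of erythroid cells, neutrophils, T cells, B cells and platelets were all measured in it. Of 5 further genes fixed as eosinophil markers, PRG3 and SIGLEC8 were measured, and PRG2, EPX and ADGRE1 were not analysed here.

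The depth behind the members differed widely. FCER1G had a median of 12963 counts per library, CCR3 2109.5, ALOX15 1171, GATA2 325, IL5RA 259, FCER1A 237.5, MS4A2 142.5, CPA3 61 and HDC 8. HDC was at 0 in 35 libraries, where a count of 0 allows up to 3 counts, or 0.0519 to 0.104 CPM (counts scaled to a common library total after TMM normalisation), and CPA3 was at 0 in 1 library, which allows up to 0.0849 CPM. These limits cover counting error only. Since no gene lengths come with the table, levels were compared between samples and not between genes. All 9 members passed the filter on low values.

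The first question was how the members moved over the 56 days in all 42 steers. The eosinophil genes ALOX15, IL5RA and CCR3 rose. For ALOX15 and IL5RA the largest step was between days 21 and 56, the longest interval between draws. CCR3 changed by 0.40 on the log2 scale over that interval and by 0.39 from day 0 to day 3. CPA3 and GATA2 of the basophil and mast cell group had their largest change at day 14. At day 56 their change was smaller than that of ALOX15, IL5RA and CCR3. FCER1A, MS4A2 and HDC did not differ from day 0 past the FDR on any day. With edgeR's quasi-likelihood F test on all 5 later days, and with steer as a block, 6 of 9 members passed an FDR of 0.05, against 81% of the 19056 genes tested, so that a change over days was common in this blood and is no mark of these genes. FDR is the Benjamini-Hochberg adjusted p over all genes tested. In whole blood, fewer cells of a type and less RNA per cell cannot be told apart.

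The size and the direction of the changes give more than their number. Against day 0, 3 of 9 members were higher at day 3, 3 at day 7, 6 at day 14, 5 at day 21 and 5 at day 56, and none was lower. Of all genes tested, 22.1%, 25.3%, 34.2%, 34.1% and 33.9% were higher on these days, and the median log2 fold change of all genes was 0.02 at day 56. The median of the 3 IgE receptor chains at day 56 was 0.10 and that of the 2 eosinophil receptors 1.32.

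ALOX15 rose the most. It lay between 2.23 and 104 CPM at day 0 with a median of 12.5, and between 10.5 and 465 CPM at day 56 with a median of 65.6. The ranges of the days overlapped, because the steers differed widely to begin with, yet 41 of 42 steers were above their own day 0 level at day 56. The log2 fold change from day 0 was 0.53 (SE 0.15) at day 3, 0.77 (SE 0.15) at day 7, 0.95 (SE 0.15) at day 14, 1.44 (SE 0.16) at day 21 and 2.49 (SE 0.16) at day 56, which is 5.62-fold (edgeR, FDR = 1.01e-34). The rise had not levelled off, since the step from day 21 to day 56 was 1.05 (SE 0.15, FDR = 3.23e-08). At that step ALOX15, IL5RA and CCR3 were 3 of 9 members that changed, against 7.15% of all genes tested.

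IL5RA, the receptor chain through which interleukin 5 reaches eosinophils, also rose to day 56 and first passed the FDR at day 14. Its median was 3.5 CPM at day 0 (1.13 to 16.5) and 13.4 CPM at day 56 (3.66 to 62.1), and 41 of 42 steers were above their own day 0 level. The log2 fold change was 0.26 (SE 0.13) at day 3 and 0.25 (SE 0.13) at day 7, neither past the FDR (0.0855 and 0.0971), then 0.42 at day 14, 0.78 at day 21 and 1.68 (SE 0.13) at day 56, which is 3.2-fold (edgeR, FDR = 2.39e-28). Most of the rise came late, and the step from day 21 was 0.90 (SE 0.12, FDR = 2.75e-09).

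CCR3, the eotaxin receptor, rose in smaller steps. Its median was 32.9 CPM at day 0 (9.26 to 96.7) and 66.5 CPM at day 56 (27.2 to 161), and 39 of 42 steers were above day 0. The log2 fold change was 0.39 (SE 0.09) at day 3 and 0.96 (SE 0.09) at day 56, which is 1.95-fold (edgeR, FDR = 2.66e-19). Unlike ALOX15 and IL5RA, CCR3 varied within steers together with platelet genes, as described further on.

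CPA3 and GATA2 reached their highest levels at day 14. For CPA3 the median was 0.898 CPM at day 0 (0.218 to 4.29), 1.91 CPM at day 14 (0.595 to 5.16) and 1.52 CPM at day 56 (0.309 to 7.36), and 36 of 42 steers were above day 0 at day 14. Its log2 fold change was 0.42 (SE 0.12, edgeR, FDR = 0.0032) at day 3, 0.29 (SE 0.12, FDR = 0.0425) at day 7, 0.84 (SE 0.12, edgeR, FDR = 1.66e-10) at day 14 and 0.63 (SE 0.12, FDR = 1.18e-06) at day 56. GATA2 had a median of 5.69 CPM at day 0 (0.804 to 13.1), 9.69 CPM at day 14 (0.86 to 21.9) and 9.02 CPM at day 56 (0.825 to 24.7), with 37 of 42 steers above day 0 at day 14. Its log2 fold change did not pass at day 3 (0.26, SE 0.13, FDR = 0.104) or day 7 (0.09, SE 0.13, FDR = 0.599) and was 0.72 (SE 0.13, edgeR, FDR = 3.12e-07) at day 14 and 0.60 (SE 0.13, FDR = 1.45e-05) at day 56. Both genes rose between days 7 and 14, by 0.55 (SE 0.12, FDR = 2.54e-05) for CPA3 and 0.62 (SE 0.13, FDR = 1.39e-05) for GATA2, a step at which 49.2% of all genes tested changed in either direction.

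The erythroid genes moved over the same days. The summed level of 8 of 9 erythroid genes, hemoglobin included, had a median of 2340 CPM at day 0 (39.4 to 39300), 31900 CPM at day 14 (372 to 271000) and 3390 CPM at day 56 (207 to 133000). After removal of steer and day means, the mean log2 level of these genes correlated with GATA2 (r = 0.435, all libraries) and CPA3 (r = 0.434), with MS4A2 (r = 0.332), ALOX15 (r = 0.223) and FCER1A (r = 0.194), and with the other 4 members at r between -0.095 and 0.108. At day 56 the median log2 fold change of the 8 erythroid genes was 0.50, with 1 gene higher and 0 lower past the FDR. GATA2 was at 0.60 and CPA3 at 0.63 on that day, both past the FDR. Every CPA3 and GATA2 call was kept when the hemoglobin genes were left out of the library sizes. That alternative changes only the scaling and cannot take out GATA2 or CPA3 RNA of erythroid cells. The part of erythroid RNA in these results was not tested.

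FCER1A, MS4A2 and HDC stayed close to their day 0 levels. FCER1A, the IgE-binding chain, had a median of 5.38 CPM at day 0 (1.93 to 9.95) and 5.54 CPM at day 56 (1.67 to 12.4), with 20 of 42 steers above day 0, and a log2 fold change of 0.10 (95% interval -0.10 to 0.29, FDR = 0.392). MS4A2 had a median of 2.91 CPM at day 0 (1.03 to 10.6) and 3.38 CPM at day 56 (0.424 to 8.64), with 24 of 42 steers above day 0 and a log2 fold change of 0.03 (95% interval -0.22 to 0.28, FDR = 0.835). These intervals leave out a change of the size seen for GATA2 at day 56. For HDC, at 8 counts, the interval at day 56 was wide, with a log2 fold change of 0.18 (95% interval -0.23 to 0.58, FDR = 0.46). Between days 7 and 14 HDC rose by 0.58 (SE 0.21, FDR = 0.0159), from its lowest median of 0.141 CPM to 0.207 CPM.

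**Figure D1:**
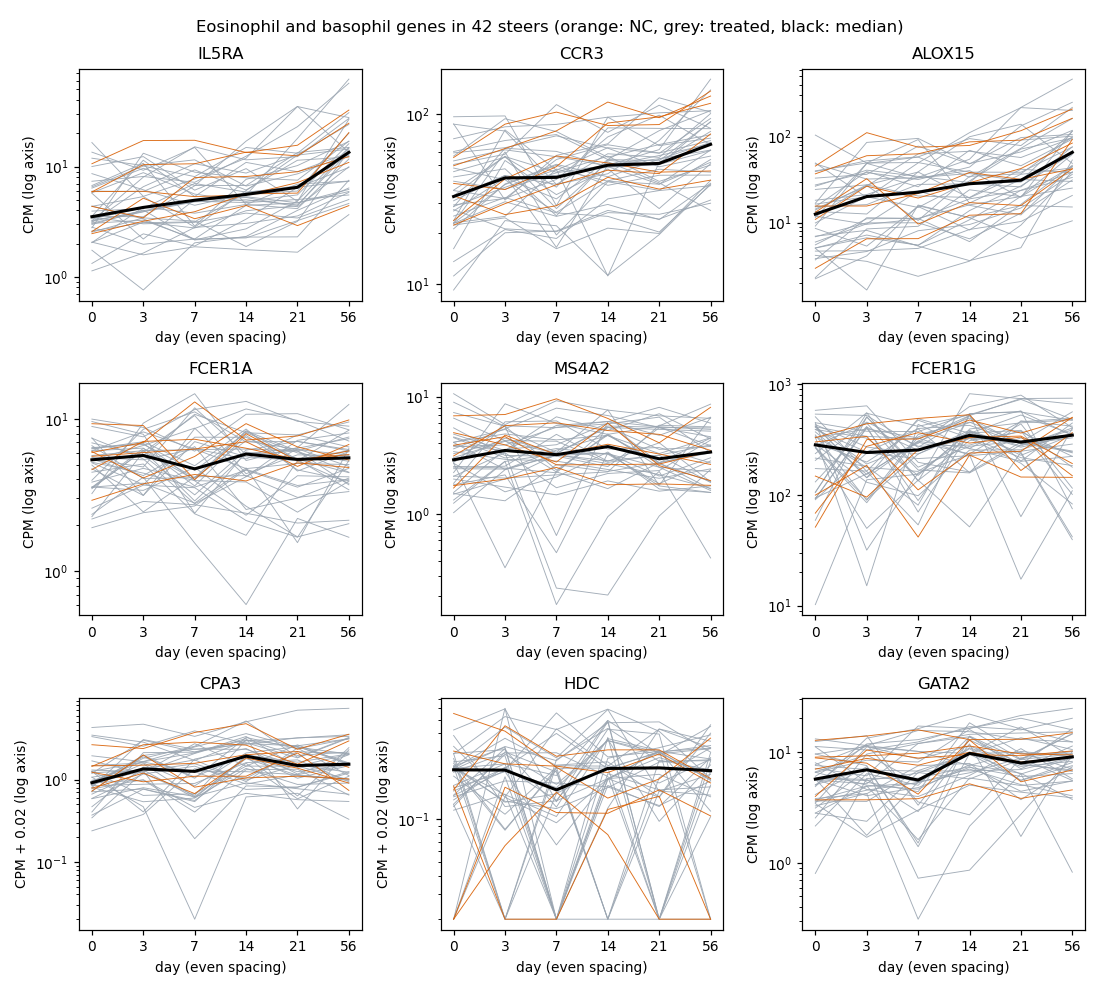
CPM (log axis) of the 9 genes on the 6 sampling days (even spacing), with 1 line per steer, NC steers in orange, treated steers in grey and the median of 42 steers in black. A value of 0.02 was added for CPA3 and HDC, which were at 0 in 1 and 35 libraries. The medians of IL5RA, CCR3 and ALOX15 climb to day 56, while those of FCER1A and MS4A2 stay level.

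Genes of other blood cells shifted over the same period. At day 56 against day 0, 10 of 12 T cell genes were higher and 2 lower, and their summed level went from a median of 2150 CPM (1680 to 3340) to 3010 CPM (2190 to 4280). Of 8 B cell genes 7 were higher and 1 lower, with sums of 1730 CPM (954 to 2500) and 2160 CPM (1480 to 3230). Of 8 monocyte genes 7 were lower, with sums of 871 CPM (496 to 1670) and 539 CPM (306 to 980). Of all genes tested, 33.9% were higher and 31.8% lower at day 56. Of 11 neutrophil genes 7 were lower and 1 higher, with sums of 5350 CPM (3670 to 8650) and 4680 CPM (3160 to 7220). Of 7 NK and cytotoxic genes 5 were lower and 2 higher, with sums of 650 CPM (386 to 2410) and 550 CPM (342 to 1010), and of 7 dendritic cell genes 6 were lower, with sums of 223 CPM (154 to 350) and 189 CPM (142 to 278). Of 9 glucocorticoid-responsive genes 8 were lower and 1 higher, with sums of 2220 CPM (1170 to 3960) and 1660 CPM (950 to 2660). Glucocorticoids are known to lower blood eosinophils, and the correlation of the mean log2 level of these genes with a member after removal of steer and day means was 0.21 for IL5RA, 0.07 for CCR3 and 0.02 for ALOX15. The part of these shifts, and of the fall of these genes, in the members' changes was not tested.

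The next question was whether the rise also took place without an antimicrobial. In the 6 NC steers alone, ALOX15, IL5RA and CCR3 rose as well. ALOX15 was between 2.95 and 45.4 CPM at day 0 (median 14.4) and between 42.1 and 209 CPM at day 56 (median 88.3), higher in 6 of 6 steers, with a log2 fold change of 2.68 (SE 0.34, edgeR, FDR = 1.35e-05). IL5RA was between 2.46 and 10.6 CPM at day 0 (median 5.11) and between 4.42 and 32.5 CPM at day 56 (median 16.3), higher in 6 of 6 steers, with a log2 fold change of 1.71 (SE 0.24, FDR = 3.35e-05). CCR3 was between 22.3 and 55.7 CPM at day 0 (median 36.2) and between 41 and 137 CPM at day 56 (median 96.5), higher in 6 of 6 steers, with a log2 fold change of 1.22 (SE 0.17, FDR = 3.4e-05). The groups of values overlapped across days for IL5RA, CCR3 and ALOX15, and the rise showed within steers.

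Fewer members passed in the NC steers, as fewer genes did. Higher than at day 0 were 0 of 9 members at day 3, 1 at day 7, 5 at day 14, 3 at day 21 and 3 at day 56, against 0.0315%, 1.1%, 15%, 11.9% and 15.4% of all genes tested. At day 3, ALOX15 alone of the 9 members was under an unadjusted 0.05 in edgeR's quasi-likelihood test (FDR = 0.351), and DESeq2 called no member on that day either. At day 14, GATA2 passed in the NC steers with a log2 fold change of 0.50 (SE 0.17, FDR = 0.0304), above day 0 in 6 of 6 steers. CPA3 was at 0.64 on that day (SE 0.26, FDR = 0.0603) and did not pass. At day 56, CPA3 had a log2 fold change of 0.28 (SE 0.26, FDR = 0.45) and GATA2 of 0.29 (SE 0.17, FDR = 0.223) in the NC steers, and neither passed.

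**Figure D2:**
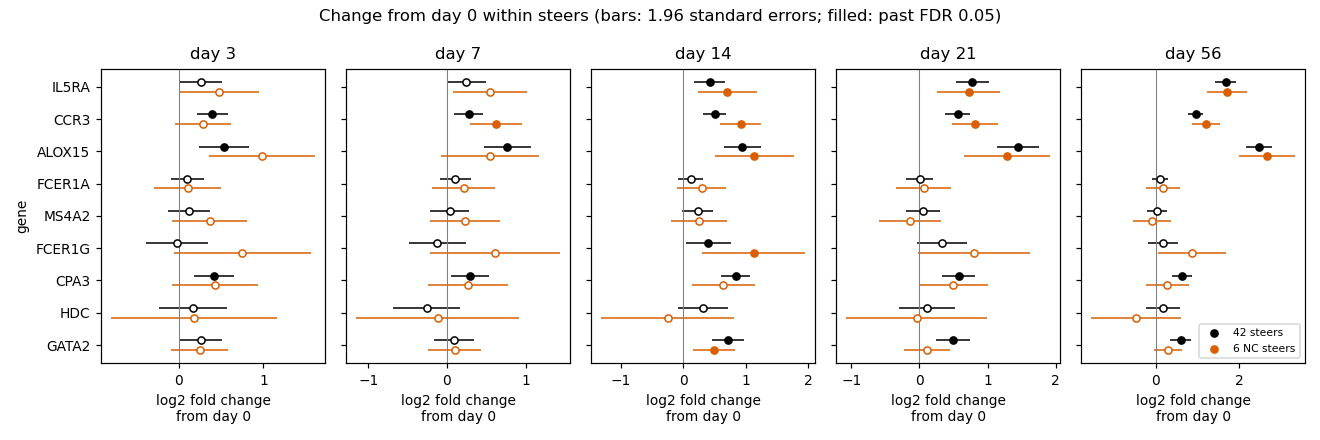
Log2 fold change from day 0 on each later day for all 42 steers (black) and the 6 NC steers (orange), from edgeR with steer as a block. Bars span the 95% interval and filled points are past an FDR of 0.05. ALOX15, IL5RA and CCR3 are to the right of 0 at day 56 in both sets of steers, at 2.49, 1.68 and 0.96 in all steers.

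Within steers, the members fell into 2 sets that varied together. Log2 CPM was taken after removal of the steer and day means, so that only the ups and downs of single blood draws remained, and the correlations over the libraries of 42 steers on 6 days are a description. IL5RA and ALOX15 had r = 0.80, IL5RA and CCR3 r = 0.55, and CCR3 and ALOX15 r = 0.49. GATA2 and MS4A2 had r = 0.82, and the pairs among FCER1A, MS4A2, CPA3 and GATA2 otherwise had r between 0.50 and 0.58. Between these sets r was at most 0.30, for ALOX15 with MS4A2. FCER1A, MS4A2, CPA3 and GATA2 moved together from draw to draw, and of them CPA3 and GATA2 passed the test over days. HDC, at a median of 8 counts, had r between -0.133 and 0.139 with the other members, and FCER1G between -0.134 and 0.126.

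Over the 42 steer means, the sets were less separate. IL5RA and ALOX15 had Spearman's rho = 0.91 and MS4A2 and GATA2 rho = 0.78, but GATA2 and CCR3 also had rho = 0.66 and MS4A2 and ALOX15 rho = 0.57. The libraries share steers, days and lanes, so that no p is given.

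**Figure D3:**
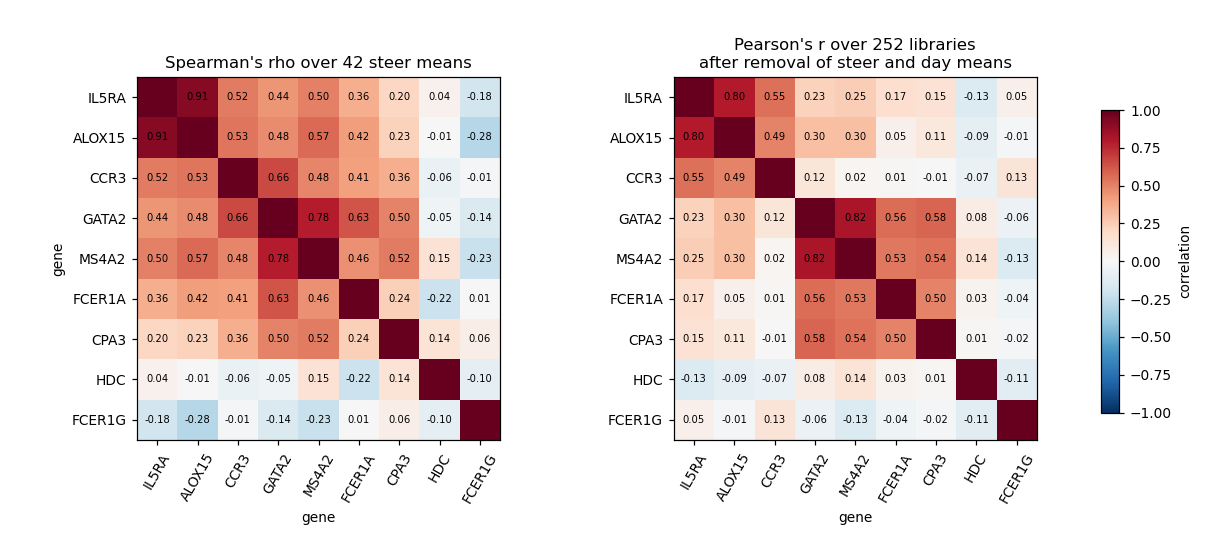
Correlation between members, as Spearman's rho over 42 steer means (left) and as Pearson's r over all libraries after removal of steer and day means (right), each from -1 (blue) to 1 (red). The right panel shows a set of IL5RA, ALOX15 and CCR3 and a set of GATA2, MS4A2, FCER1A and CPA3, with HDC and FCER1G near 0.

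The genes most like each member among all genes tested followed these sets. Over the 42 steer means, ALOX15 was most like ALOX5, the enzyme that opens leukotriene synthesis, and RAB44, a small GTPase (rho = 0.93 each), followed by SMPD3 (rho = 0.92). IL5RA was most like ALOX15 (rho = 0.91), ALOX5 (rho = 0.90) and RAB44 (rho = 0.89). MS4A2 was most like SERPINB2 (rho = 0.80), GATA2 (rho = 0.78) and MIXL1 (rho = 0.76), and GATA2 most like LOC100848006 (rho = 0.81), MS4A2 and MIXL1 (rho = 0.78 each). FCER1A was most like LOC112446426 (rho = 0.67), GATA2 (rho = 0.63) and NTRK3 (rho = 0.62). CCR3 was most like PRKAG2 (rho = 0.69), GATA2 (rho = 0.66) and TUBB1 (rho = 0.66), the last a tubulin of platelets. Another member thus stood among the 3 nearest genes of IL5RA, MS4A2, GATA2, FCER1A and CCR3. CPA3 was most like SOWAHD and SKAP2 (rho = 0.61 each), FCER1G most like LOC112443475 (rho = 0.67), LOC789388 (rho = 0.64) and TMEM50A (rho = 0.64), and HDC most like LOC101902390 (rho = 0.52), MFSD11 (rho = 0.51) and CTNND2 (rho = 0.51). From draw to draw within steers, ALOX15 and IL5RA had ALOX5 as the nearest gene (r = 0.85 and 0.80), GATA2 had LOC100139881 (r = 0.87), and FCER1A and MS4A2 had GCSAML among their nearest 2 (r = 0.70 and 0.77). For CCR3 the nearest were FHL1 (r = 0.76), DAPK2 (r = 0.75) and TOM1L1 (r = 0.74), each above its r with IL5RA and ALOX15.

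CCR3 stood apart from the other members by its tie to platelet genes. The mean log2 level of 7 of 8 platelet genes had r = 0.663 with CCR3 over all libraries after removal of steer and day means, against 0.09 for ALOX15 and 0.07 for IL5RA. The summed level of these platelet genes had a median of 812 CPM at day 0 (312 to 2160), 1110 CPM at day 3 (548 to 2430) and 984 CPM at day 56 (394 to 2100), and 1 of its 7 genes was higher and 0 lower at day 56 (edgeR, FDR 0.05). Over these 42 steers the median log2 fold change of the platelet genes was 0.45 at day 3 and 0.14 at day 56, while that of CCR3 was 0.39 and 0.96. In the 6 NC steers the median of the platelet genes was 0.58 at day 3, 0.56 at day 14 and 0.56 at day 56, with 0, 3 and 2 of 7 genes higher and 0 lower. The part of platelet RNA in the level of CCR3 was not tested.

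FCER1G, like HDC, varied mostly from draw to draw. It ranged from 10.2 to 581 CPM at day 0 and from 39.4 to 748 CPM at day 56, and single steers swung widely between draws. Steer Enro8, for example, had 448 CPM at day 0, 31.7 at day 3, 158 at day 7, 231 at day 14, 17.3 at day 21 and 109 at day 56. The SD of log2 CPM over all libraries was 1.02 for FCER1G and 1.01 for HDC, and 68.4% and 70.1% of the variance lay neither between steers nor between days. FCER1G was called higher at day 14 (log2 fold change 0.40, SE 0.18, edgeR, FDR = 0.0444). The call was lost without NC (FDR = 0.189), OXYT (0.106), TILD (0.0939), FLOR (0.0908) or CEFT (0.0716), without the filter on low counts (0.0687) and without the steer as a block (0.0535), and the test over all days was lost without TILD (0.181), CEFT (0.11), FLOR (0.076) or NC (0.0642). Values of FCER1G are therefore uncertain here.

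The study's central question was how each antimicrobial compared to NC. On single days, 1 of 324 comparisons of a member passed an FDR of 0.1 (edgeR, 6 against 6 steers), against 0.7% of comparisons over all genes. It was FCER1G in TILD at day 21, which was between 300 and 797 CPM (median 654) in TILD and between 145 and 362 CPM (median 291) in NC. The groups overlapped in 1 TILD steer, and the log2 fold change was 1.21 (SE 0.27, FDR = 0.0982), while 0.74% of all genes passed in that comparison. At day 0, before the injection, FCER1G was at 236 to 449 CPM in TILD and 51.1 to 329 CPM in NC, a log2 fold change of 1.19 (SE 0.42) that did not pass (FDR = 0.574). The estimates at day 0 were above 0 in all 6 treatments, from 0.59 to 1.19, and none passed. With lane as a term the difference at day 21 was 2.23 (FDR = 0.231).

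None of the other members passed edgeR's quasi-likelihood test in any treatment on any day. DESeq2 called 6 comparisons of other members lower than NC, namely CPA3 (FDR = 0.0943) and IL5RA (0.0856) in CEFT at day 3, ALOX15 in TILD at day 3 (0.0976), CCR3 (0.0525) and FCER1A (0.0804) in ENRO at day 7 and CCR3 in TILD at day 14 (0.0446). The likelihood ratio test called the last of these as well (0.0859). Over days 3 to 56, the log2 fold change against NC lay between -1.68 and 0.68 for ALOX15, between -1.09 and 0.57 for IL5RA and between -1.02 and 0.38 for CCR3. CCR3 had an unadjusted p under 0.05 in 6 of these 30 comparisons, the lowest FDR being 0.184. CPA3 lay between -1.04 and 0.41, GATA2 between -1.13 and 0.59, FCER1A between -0.90 and 0.27, MS4A2 between -0.91 and 0.68 and HDC between -1.004 and 1.09. All comparisons with NC share the same 6 control steers, so low estimates in several treatments are not independent of one another. At unadjusted p under 0.05 there were 27 of 324 comparisons, those of day 0 before the injection included. The share of all genes was not taken for these unadjusted counts, nor for the calls by DESeq2 and the likelihood ratio test.

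Averaged over all 6 days, with day 0 before the injection included, no member passed the FDR between a treatment and NC in limma (voom weights, the steer as random block). Of 54 comparisons 0 passed an FDR of 0.05, against 2.06% of comparisons over all genes. An unadjusted p under 0.05 was found in 6 of them, for which the share of all genes was not taken. The lowest FDR was that of CCR3 in CEFT, with a log2 difference of -0.62 (95% interval -1.07 to -0.17, FDR = 0.0974), followed by CCR3 in TILD with -0.59 (95% interval -1.05 to -0.14, FDR = 0.111) and ALOX15 in TILD with -1.04 (95% interval -1.86 to -0.22, FDR = 0.119). The intervals for ALOX15 were wide, from -1.44 to 0.08 in CEFT and from -0.39 to 0.99 in TULA.

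Measured from each steer's own day 0, the course of ALOX15 differed between OXYT and NC in edgeR. The call was lost in limma with the steer as random block (FDR = 0.149) and without the replicate block (FDR = 1). By edgeR's F test over the 5 later days with steer as a block, 1 of 54 comparisons of a member passed an FDR of 0.05, against 2.98% over all genes and 3.25% in OXYT. The difference in log2 change between OXYT and NC was -1.55 at day 3, 0.51 at day 7, -0.48 at day 14, -0.13 at day 21 and -1.68 at day 56 (FDR = 0.0117). Among NC steers, ALOX15 went from 36.9 to 163 CPM between days 0 and 56 in NC1, from 45.4 to 209 in NC5, from 13.2 to 42.2 in NC7, from 10.9 to 84.1 in NC12, from 2.95 to 92.5 in NC13 and from 15.6 to 42.1 in NC15. Among OXYT steers, it went from 8.57 to 25.2 CPM in Oxyt1, from 32.9 to 106 in Oxyt2, from 2.23 to 15.2 in Oxyt4, from 104 to 30.1 in Oxyt5, from 5.03 to 10.5 in Oxyt6 and from 13.5 to 48.8 in Oxyt9. ALOX15 rose in 6 of 6 NC and 5 of 6 OXYT steers, and the ratios to day 0 overlapped, from 2.69 to 31.3 in NC and from 0.289 to 6.8 in OXYT.

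The result rests in part on single steers. In a fit of the 12 OXYT and NC steers alone, added after these values were seen, the difference at day 56 was -1.68 with an FDR of 0.0707 over the 5 days. In the same fit without Oxyt5, the steer whose ALOX15 fell, it was -0.97 (FDR = 0.034), and without NC13, the steer with the largest rise in NC, it was -1.07 (FDR = 0.121). Leaving out any of the other steers gave -1.92 to -1.63, with an FDR of 0.0813 to 0.185. OXYT was sequenced on lane 3 and NC on lane 1. All libraries of a steer were on 1 lane, so a constant lane offset cancels in a change from the steer's own day 0. Pen and order of the blood draws cannot be told apart from treatment here. IL5RA, which varies with ALOX15, had -0.92 at day 3 and -0.99 at day 56 in OXYT and did not pass (FDR = 0.286).

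**Figure D4:**
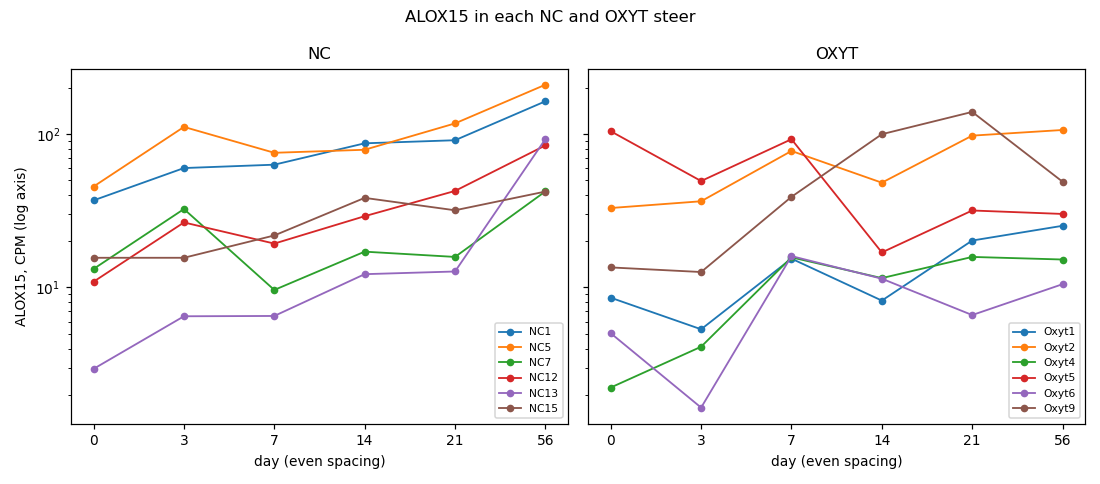
CPM of ALOX15 (log axis) in each NC steer (left) and each OXYT steer (right) on the 6 sampling days (even spacing), with 1 line per steer. All NC lines end above their start, whereas Oxyt5 goes from 104 to 30.1 CPM.

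Over the other treatments the rise of the eosinophil genes to day 56 showed in nearly every steer. The median ratio of day 56 to day 0 for ALOX15 was highest in TILD at 9.26, ENRO at 8.03, FLOR at 7.62 and CEFT at 6.07, and lower in NC at 4.5, TULA at 3.45 and OXYT at 3.08. For IL5RA it was highest in ENRO at 4.77, CEFT at 3.68, TILD at 3.53 and FLOR at 3.01, then NC at 2.95, TULA at 2.21 and OXYT at 1.84. OXYT and TULA had the lowest median ratios for both genes, but apart from ALOX15 in OXYT no change from day 0 of ALOX15 or IL5RA differed from NC past the FDR. For CCR3 the ratios lay between 1.52 in TULA and 2.55 in ENRO, and the lowest FDR of its change was 0.114, in ENRO.

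Steers kept part of their rank from day 0 to day 56 for 4 of the 9 members. Spearman's rho over the 42 steers was 0.573 for ALOX15 (permutation p = 0.00012, FDR = 0.000534), 0.568 for CCR3 (p = 0.00013, FDR = 0.00057), 0.473 for MS4A2 (p = 0.00168, FDR = 0.00748) and 0.464 for IL5RA (p = 0.00189, FDR = 0.00876), by a two-sided test with 100000 shuffles. A positive correlation past the FDR was found for 38.8% of all genes tested, so that 4 of 9 members is near the share of all genes. With group means subtracted 3 members passed, and MS4A2 did not (rho = 0.332, FDR = 0.0775). Pearson's r was 0.532 for ALOX15, 0.567 for CCR3, 0.472 for MS4A2 and 0.43 for IL5RA (permutation p = 0.00032, 0.00014, 0.00145 and 0.00414), and 0.61, 0.528, 0.405 and 0.475 once the 2 steers farthest from the median of day 0 had been left out. A steer with much ALOX15 on arrival thus tended to have much of it at day 56, when nearly all steers had more.

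On the single lanes the rank order held in direction. The values of rho on lanes 1, 2 and 3 were 0.574, 0.824 and 0.393 for ALOX15, 0.714, 0.648 and 0.354 for CCR3, 0.393, 0.481 and 0.442 for MS4A2, and 0.459, 0.574 and 0.253 for IL5RA. For the other members rho was 0.337 for CPA3 (FDR = 0.0691), 0.265 for FCER1A (FDR = 0.165), 0.199 for GATA2 (FDR = 0.317), 0.136 for FCER1G (FDR = 0.514) and 0.118 for HDC (FDR = 0.576). FCER1A and GATA2 did not pass although steers accounted for 57.2% and 46.4% of their variance over all libraries, against a median of 38.6% over all genes tested. Days accounted for 27.1% of the variance of ALOX15 and 26.5% of that of IL5RA, but for 0.465% of that of FCER1A, against a median of 8.36%.

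Other genes of these cells and their pathways were taken as lists, and their counts at day 56 against day 0 over 42 steers are set beside the 33.9% of all genes that were higher and 31.8% that were lower. PRG3, an eosinophil granule protein, rose from day 14 on, by 0.81 (SE 0.33, FDR = 0.0254), and reached a log2 fold change of 1.28 (SE 0.33, edgeR, FDR = 0.000254) at day 56. In the NC steers alone PRG3 was at 1.41 at day 56 and passed on no day. After removal of steer and day means, PRG3 had r = 0.25 with ALOX15, 0.24 with IL5RA and 0.12 with CCR3. With GATA2 and MS4A2 it had r = 0.19 each. Of 11 tested surface genes of eosinophils and basophils 6 were higher and 2 lower, among them PTGDR2, a prostaglandin D2 receptor, at 1.09 (SE 0.07), the histamine receptor HRH4 at 0.86 (SE 0.08), and IL3RA, a chain of the interleukin 3 receptor, at 0.96 (SE 0.32). The gene listed as SIGLEC8, an eosinophil surface lectin in humans that was among the fixed markers, went the other way at -0.30 (SE 0.06, FDR = 2.21e-06). PTGDR2, HRH4 and IL3RA were named for their large absolute changes, so they do not stand for the list, whose median was 0.19. HRH4 was also among the 3 genes nearest FCER1A within steers (r = 0.60), and FCER1A passed on no day. The lowest of the 11 surface genes was at -0.78.

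Of 13 other lineage regulators 6 were higher and 5 lower. CEBPE, needed for eosinophil granule genes, was at 1.24 (SE 0.11, FDR = 1.77e-21) and GATA1, shared by eosinophils, platelets and red cells, at 1.03 (SE 0.13, FDR = 1.34e-13), while MITF, a mast cell regulator, was lower at -0.585 (SE 0.07, FDR = 2.02e-15). Of 9 granule proteases and proteoglycans 2 were tested, and the tryptase TPSB2 rose by 1.36 (SE 0.28, FDR = 3.9e-06) while SRGN, a proteoglycan of many blood cells, fell by 0.66 on the log2 scale (SE 0.08). Of 13 leukotriene and prostaglandin genes 7 were higher and 2 lower, led by ALOX5 at 1.98 (SE 0.14, FDR = 2.08e-29), PTGDS at 1.28 (SE 0.25) and DPEP2 at 0.85 (SE 0.16).

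The signalling genes downstream of the IgE receptor moved in both directions. Of 19 genes of proximal IgE receptor signalling, many of which lymphocytes also use, 5 were higher and 11 lower, with LAT at 0.71 (SE 0.04), TEC at -0.67 (SE 0.09) and GAB2 at -0.42 (SE 0.07). Of 30 genes of the branch from the receptor to NF-kB 10 were higher and 15 lower, with TAB2 at -0.48 (SE 0.04) and NFKBIA at -0.35 (SE 0.06). These genes act in many leukocytes, and the medians of the lists were -0.12 and -0.08, against 0.02 for all genes. Of 4 tested genes of histamine handling 2 were lower, HNMT, which inactivates histamine, at -0.76 (SE 0.10) and the receptor HRH1 at -0.35 (SE 0.09). Of 5 tested ligands of type 2 immunity 0 were higher and 1 lower, the chemokine CCL8 at -1.59 (SE 0.42, FDR = 0.000489), with CCL2 at -0.60 (SE 0.36, FDR = 0.136) and TSLP at 0.10 (SE 0.19, FDR = 0.675). The other 10 ligands, with IL5 and IL4 among them, were too low to be tested. Of 10 receptors and regulators of type 2 immunity 5 were higher and 3 lower, with IL9R at 0.64 (SE 0.05), JAK2 at -0.84 (SE 0.06) and IL13RA1 at -0.73 (SE 0.05).

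Against NC, 36 of the 37 calls of listed pathway genes at an FDR of 0.1 fell on day 3, as did 91.1% of the 4801 calls over all genes. The genes named here were chosen after their values were seen. In CEFT, of which 10.9% of all genes passed on that day, 3 of 30 genes of the NF-kB branch were higher and 7 lower, with MALT1 at -0.40 (SE 0.08, edgeR, FDR = 0.0445) and TAB2 at -0.43 (SE 0.10, FDR = 0.0544). In TILD, of which 3.14% passed, 1 of these 30 genes was higher and 4 lower, with MALT1 at -0.36 (SE 0.07, FDR = 0.0479). In OXYT, of which 2.97% passed, 2 of them were lower, MALT1 at -0.30 (SE 0.08, FDR = 0.0943) and PRKCQ at -0.39 (SE 0.10, FDR = 0.0943). MALT1 is a protease that links antigen receptors of lymphocytes, as well as the IgE receptor, to NF-kB. No chain of the IgE receptor passed on day 3 in these groups.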

How the data were processed

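Blood of 42 steers on 6 days was sequenced as stranded mRNA libraries. The authors trimmed reads with Trimmomatic 0.39, mapped them with HISAT2 (2.1.1 per the labels), assembled them with StringTie 2.2.0 and deposited raw read counts per gene (read length 150). Of 33282 genes, 19056 passed CPM over 0.2 in at least 12 of 252 libraries. edgeR 4.0.16 (quasi-likelihood test, TMM) compared days with steer as a block, each treatment with NC on each day, and changes from day 0 between groups. limma 3.58.1 (voom) compared group means with steer as a random block. FDR limits were 0.05, and 0.1 for treatments on single days. The same steers were bled on all days, which pairs the libraries, and their consensus correlation was 0.354. Day 0 and day 56 levels were correlated with 100000 shuffles, for which the smallest p is 1e-05. Steps between days were added after the data were seen. All 9 members are named, with up to 3 genes of each related list by largest change, all eosinophil granule genes, and the 3 genes most like each member. Of these, 2 genes are not reported here, nor is 1 alternative for FCER1G under which its calls did not hold. The members and lists were chosen with earlier results of these data known. Alternatives were DESeq2 1.42.0, its size factors, no filter, no hemoglobin genes, the likelihood ratio test, lane as a term or ComBat_seq (sva 3.50.0), no replicate block, and left-out groups or steers. Scripts were tested on simulated data in R 4.3.3 and Python 3.11.15. Of simulated log2 changes of 1 in CEFT, 15% were recovered against NC on day 3 and 27% in the group effect. In the change from day 0, 2.5% were recovered. The comparisons with NC can therefore miss changes of this size.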

Additional observations from a re-analysis of the deposited data

Results flagged for a closer look

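The mean log2 CPM over 6 days of each steer was compared with that of the other 5 steers of its group for each member, 63 groups in all, of which chance alone would set apart about 1 in 20. FCER1A was at 1.28 in Enro6, below the other ENRO steers at 2.32 to 2.53. FCER1G was at 6.64 in Enro8, below the other ENRO steers at 7.68 to 8.25. FCER1G was also low in Tula3, at 6.63 against 7.59 to 7.94 in the other TULA steers.

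The change of ALOX15 from day 0 to day 56 differed between OXYT and NC by -1.68 on the log2 scale, and the difference over the 5 later days passed an FDR of 0.05 (edgeR, FDR = 0.0117) in the fit of all 7 groups. It did not pass in limma with the steer as random block (FDR = 0.149), without the replicate block (FDR = 1) or in the 12 OXYT and NC steers alone (edgeR, FDR = 0.0707).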

How the results depend on the processing

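Over 42 steers, 22 calls of a member on a day were recomputed under 12 alternatives, and of the 264 values 245 kept their direction and their side of the threshold, 19 were no longer past it and 0 reversed. Without the replicate block, which leaves out the pairing of libraries by steer, 17 of the 22 calls and 6 members with a day effect remained over 42 steers, the calls in the NC steers went from 12 to 3, and the change from day 0 against NC went from 1 call to 0. ALOX15 in OXYT then had -1.83 (FDR = 1). In limma (voom weights, the steer as random block) the change from day 0 also went to 0 calls, with -1.34 (FDR = 0.149) for ALOX15 in OXYT. In edgeR's fit of the 12 OXYT and NC steers alone, leaving out 1 steer gave ALOX15 values between -1.92 and -0.97. Of these fits, only the one without Oxyt5 passed an FDR of 0.05. The 1 call against NC on a single day became 0 with DESeq2 size factors, without the filter, without hemoglobin genes, with lane as a term and with ComBat_seq by either test, 2 with the likelihood ratio test and 7 with DESeq2. Averaged over days, 0 calls became 3 without the filter, CCR3 in TILD (FDR = 0.0228) and CEFT (0.0456) and ALOX15 in TILD (0.0262). The shares of all genes called under these alternatives were not taken. For MS4A2 the correlation of day 0 with day 56 was no longer past the threshold with group means subtracted. Depth limits HDC most, and the cause of these shifts was not tested.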

Other observations

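In 2 FLOR steers, chosen after their values were seen, the basophil genes fell to low levels on some days. In Flor10, MS4A2 was at 1.32, 2.82, 0.17, 0.952, 2.31 and 0.424 CPM, in the order of the sampling days from 0 to 56. GATA2 was at 3.26, 4.21, 0.311, 2.14, 6.36 and 0.825 CPM in the same draws. In Flor10, ALOX15 was at 2.3, 8.45, 9.07, 24.1, 20 and 45.3 CPM. In Flor6, MS4A2 was at 2.1, 3.33, 0.235, 0.205, 0.965 and 2.4 CPM and GATA2 at 5.06, 7, 0.728, 0.86, 2.74 and 9.09 CPM. ALOX15 in Flor6 was at 6.96, 8.13, 5.35, 3.62, 5.11 and 53.4 CPM, below its day 0 level on days 7, 14 and 21. FCER1A was lowest at day 14 in both steers, at 0.604 CPM in Flor10 and 2.33 CPM in Flor6, and CPA3 at day 7, at 0.82 and 0.171 CPM. No test was made of these dips.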
